A study of Sus scrofa with 4 samples.

Results

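The infarct zone and the border zone of minipig hearts treated with myoblasts after myocardial infarction (MI) were compared through 1 array of each zone. Signals are given in the linear units of the MAS 5.0 algorithm. The comparison takes the log2 signal of the infarct zone array minus that of the border zone array, so that a value of 1 is a signal 2-fold higher in the infarct zone and a value of -1 a signal 2-fold higher in the border zone. Of the 23999 probe sets of the Affymetrix Porcine Genome Array that are no Affymetrix controls, 12418 (51.7%) had a mean signal on these arrays whose log2 was at least 7 and are the members described here. The other 11581 lay below this minimum. A single gene symbol was given for 6157 of the members, several for 129 and none for 6132. Taken by the brightest probe set of each, 4980 of the 6765 named genes on the array reached the minimum.

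According to the methods of the study, MI was induced in 4-month-old female Bama minipigs by permanent ligation of the left circumflex coronary artery, and male human skeletal myoblasts in culture medium were injected into the heart muscle at the border of the forming infarct under cyclosporin A, while the labels place the injections in both zones. The 4 arrays are 1 each of border zone and infarct zone with myoblast transplantation, and 1 each of the same zones of control minipigs with MI, whose treatment the labels give as none and which they call untreated. The methods describe a control treatment group that received medium and cyclosporin A, and an MI group that received neither, while the results of the study describe the arrays as a comparison with the control treatment group. The labels and the study thus differ on what the control arrays received, and the name controls is used here. How many minipigs stand behind an array, whether the zones of a treatment came from the same animals, and when the tissue was taken are not given in the sources used here. With 1 array a side there are no replicates, so no error, test or p-value is given, and every difference below is one between single arrays.

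After permanent occlusion of a coronary artery, heart muscle in the core of the territory dies and is cleared by phagocytes, and fibroblasts fill the space with a matrix of collagens, proteoglycans and matricellular proteins, which are secreted proteins that steer cell behaviour in healing tissue. The border zone holds surviving cardiomyocytes next to this scar, under high wall stress and with matrix deposition of its own. B cells and plasma cells make immunoglobulin, and complement is a cascade of plasma proteins that marks cells and debris for removal. In tissue RNA, fewer cells of a type and less RNA per cell cannot be told apart.

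The arrays were alike in overall level, with median signals from 137 to 142. As a sign of RNA integrity, the GAPDH ratio of 3' over 5' probe sets was 1.73 (border) and 1.38 (infarct) after myoblasts, with 1.55 and 1.52 in controls. The same ratio was far higher for actin, at 24.6 and 19.5 after myoblasts and 24.9 and 36.8 in controls. For EF1A it was 3.01 and 2.49 after myoblasts and 4.17 and 4.13 in controls. The signal of 28S ribosomal RNA was 8477 (border) and 10230.4 (infarct) after myoblasts, with 15769.7 and 15983 in controls. Bacterial poly-A transcripts, which are spiked into the RNA before labelling, were lower on the infarct zone array by all 32 of their probe sets, with a median infarct over border ratio of 0.456 (range 0.319 to 0.715), whereas the 27 probe sets of the hybridization controls, added after labelling, had a median ratio of 0.954. In controls these median ratios were 1.44 and 1.17. The part of these differences in the results below was not tested.

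After myoblasts, more probe sets were lower than higher in the infarct zone. Of the 12418 members, 124 (0.999%) had a signal at least 2-fold higher in the infarct zone and 227 (1.83%) a signal at least 2-fold lower. At 4-fold there were 15 higher and 20 lower members. Between the zones of control hearts, by the same minimum in that pair of arrays, 25 of 12290 probe sets (0.203%) were at least 2-fold higher in the infarct zone and 52 (0.423%) at least 2-fold lower. The median absolute log2 difference of the probe sets was 0.22 after myoblasts and 0.16 in controls, and its 99th percentile was 1.41 against 0.90. The median signed difference was near 0 in both (0.01 and -0.01). Since MAS 5.0 scaled every array to the same mean, a general shift of one zone cannot be read from it. By gene, with the brightest probe set of each, 41 of 4980 genes (0.823%) were at least 2-fold higher in the infarct zone and 82 (1.65%) at least 2-fold lower.

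**Figure D1:**
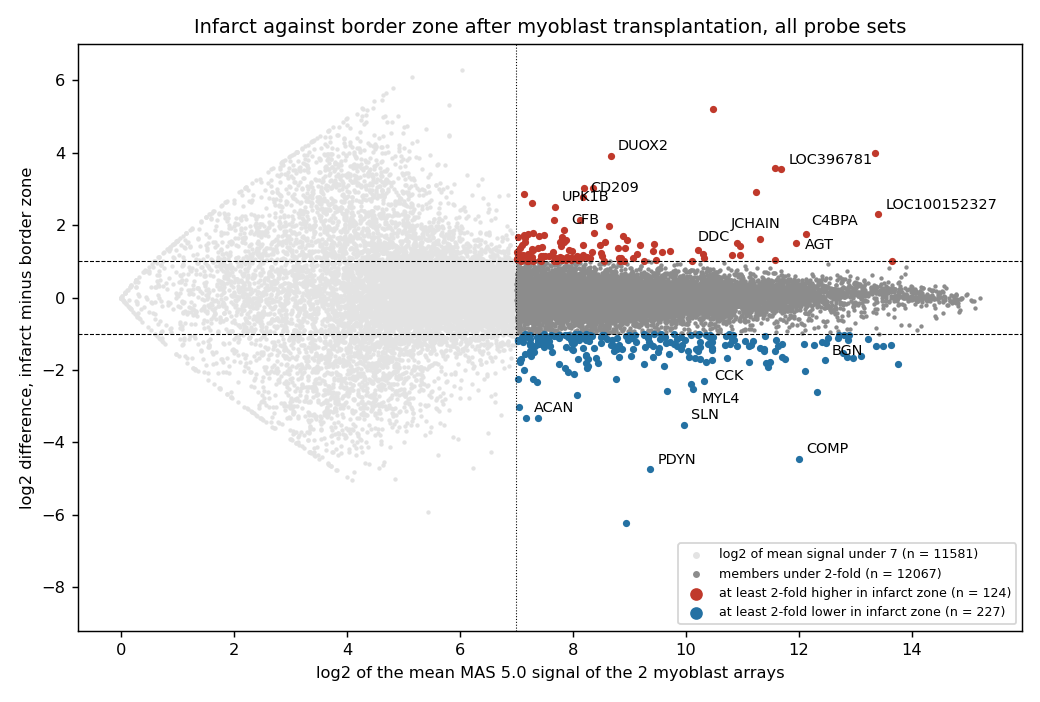
Log2 difference of infarct minus border zone after myoblasts (vertical axis) against the log2 of the mean signal of both arrays (horizontal axis), 1 point per probe set, with the minimum of 7 as a dotted line and 2-fold as dashed lines. The spread narrows as signal grows; 124 members lie above the upper dashed line and 227 below the lower one, among them COMP, PDYN and SLN.

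How much a 2-fold difference says depends on signal. On the log2 scale of the mean signal, 52.1% of probe sets were at least 2-fold apart after myoblasts and 54.4% in controls under 5, and 17.7% and 17.4% from 5 to 7. From 7 to 9 the shares were 3.48% after myoblasts and 1.05% in controls, from 9 to 11 they were 1.96% and 0.272%, and above 11 they were 2.77% and 0.0552%. In this brightest range 51 of 1842 probe sets were 2-fold apart after myoblasts, 10 higher and 41 lower in the infarct zone, against 1 of 1813 in controls. Among dim probe sets the zones of treated hearts were thus about as far apart as those of controls, and among bright ones they were further apart. Of the 124 higher members, 53 had 1 array under the minimum, and so had 56 of the 227 lower members. The median signal was 253 for the higher and 504 for the lower members. At the minimum itself, probe sets of C14H10orf35 (mean signal 127.8), BAG3 (127.9) and CD164 (127.998) fell just outside and those of TRMT1 (128.02), NVL (128.02) and SPRYD4 (128.1) just inside.

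**Figure D2:**
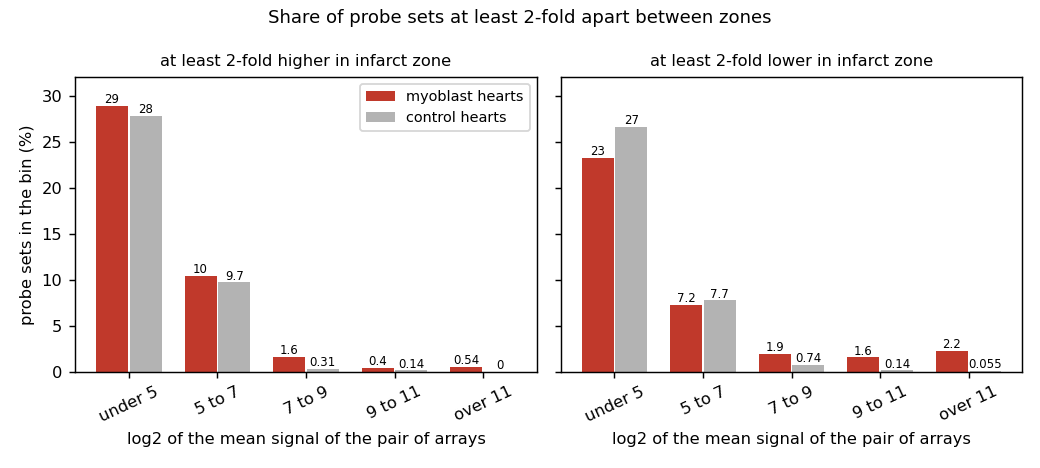
Share of probe sets (%) at least 2-fold higher (left) or lower (right) in the infarct zone, by log2 of the mean signal of the pair of arrays, for myoblast hearts (red) and control hearts (grey). The shares are alike below 7, and above 11 there were 10 and 41 of 1842 probe sets of myoblast hearts past 2-fold against 0 and 1 of 1813 in controls.

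Genes of the extracellular matrix were often higher in the border zone. The lists of collagens, of matricellular proteins, proteoglycans and crosslinking enzymes, of matrix proteases, of cartilage and tendon proteins, of TGF-beta, BMP and Wnt signalling and of fibroblast markers are described in turn, and those of collagens, matricellular proteins and fibroblast markers stood below 0 in nearly all members. Over these 6 lists together, 59 genes reached the minimum, of which 13 (22.0%) were at least 2-fold lower in the infarct zone and 0 higher, beside 1.65% and 0.823% of all genes. Their median log2 difference was -0.51, against -0.13 for the same genes in control hearts and 0.03 for all genes after myoblasts. These 13 genes were 15.9% of the 82 lower genes, while the lists held 1.18% of all genes at the minimum. With both arrays at the minimum, a setting chosen after the data were seen, 12 of 57 genes (21.1%) were lower and 0 higher, beside 1.31% and 0.560% of all genes under that setting. The gene past 2-fold that this left out was ACAN, which reached the minimum through the border zone array alone. The lists were chosen with earlier results of these arrays known, so these counts are a description.

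COMP, the cartilage oligomeric matrix protein of cartilage, tendon and scar, was the member of the lists furthest apart. Its signal was 7838 (border) and 359 (infarct) after myoblasts, against 571 and 468 in the same zones of controls, a log2 difference of -4.45. Only the border zone array with myoblasts was high, and the other 3 arrays lay close together. A dimmer probe set of COMP read 174 and 23.6, against 33.4 and 30.1 in controls, in the same order among the arrays. ACAN, which encodes aggrecan, the large proteoglycan of cartilage, had signals of 263 (border) and 26.4 (infarct), against 87.7 and 45.2 in controls. CILP, a cartilage protein also made by heart fibroblasts, was the only other gene of the cartilage, tendon and bone list above the minimum, at 15670.2 and 10824 (log2 difference -0.53) against 12751 and 12476 in controls. Other members defining cartilage or bone were dim on both arrays, such as COL2A1, the main cartilage collagen, at 92.2 and 114, and SOX9, the transcription factor of cartilage cells, at 31.2 and 15.3.

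Of the matricellular, proteoglycan and crosslinking list, 21 genes reached the minimum, 7 of them at least 2-fold lower in the infarct zone and 19 below 0, with a median of -0.63 against -0.08 in controls. TNC, tenascin C, a matricellular protein of healing tissue, had signals of 1866 (border) and 575 (infarct), against 240.0 and 250.3 in controls. Both zones with myoblasts were thus above both control arrays, the border zone by far the most. BGN (biglycan, a small proteoglycan that binds collagen) read 8665 and 2604, against 4456 and 3738 in controls, so that the border zone was the highest and the infarct zone the lowest of the 4 arrays. LOXL1, an enzyme that crosslinks elastin and collagen, stood in the same order with 3420.2 and 1002 against 2464 and 2200.1. The remaining genes of this list past 2-fold, named here after their values were seen, were PRELP (10489.9 and 3638), VCAN (3955 and 1415), POSTN (16608 and 6583) and FBN1 (15070.3 and 6018), which encode a leucine-rich proteoglycan, versican, periostin and fibrillin. In controls these 4 genes read 5674 and 5236, 2696 and 2257, 9569 and 8626, and 10431 and 11904, each between the border and infarct zone signals of myoblast hearts. Against this direction, LOX, the founding member of the lysyl oxidases, read 2051 and 2429, and SPP1 (osteopontin, made by macrophages in infarcts) 2453 and 3399.

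Of 9 collagen genes, 2 were at least 2-fold lower in the infarct zone and 8 lay below 0, with a median of -0.40 against -0.11 in controls. COL8A1, a short-chain collagen of vessel walls and injured tissue, read 5057 and 1624 against 1743 and 1613 in controls, so that only the border zone with myoblasts stood out. COL5A1, a fibrillar collagen that regulates fibril width, read 4509 and 1626, with controls between them at 2309 and 2488. The probe sets of the abundant fibrillar collagens differed less, with COL1A2 at 468 and 429.6 and COL3A1, a gene the study names, at 155 and 118. These signals are low for such genes, and how well the probe sets follow them was not tested.

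All 9 fibroblast markers above the minimum lay below 0 in the infarct zone, with a median of -0.63 against -0.04 in controls. THY1, a surface protein of fibroblasts, was the only one past 2-fold, at 10170 (border) and 4980.5 (infarct) against 8699 and 8922 in controls. LUM (lumican, a small proteoglycan) read 22643 and 12253, and FAP, a protease of activated fibroblasts, 5084 and 2979. DCN (decorin) and VIM (vimentin) differed less, at 24168 and 19665 and at 27169 and 25552. Summed over the 10 measured fibroblast genes, the signal was 106315 (border) and 77146 (infarct), against 92384 and 95199 in controls. PRRX1, a transcription factor of connective tissue cells, read 483 and 130.4 against 257 and 264 in controls. Among growth factors and their inhibitors, 10 genes of the TGF-beta, BMP and Wnt list reached the minimum with a median of -0.37 against -0.15 in controls. TGFB3, a transforming growth factor, was past 2-fold with 2073 and 753 against 1369 and 1233. SFRP1, a secreted inhibitor of Wnt signalling, was just short of it by its brightest probe set (14596 and 7303) and past it by another (9069 and 4433). DKK3, another such inhibitor, read 5679.7 and 2888, while TGFB2 went the other way with 406 and 629.7. Matrix proteases and their inhibitors showed no common direction, with 6 of 10 genes above 0 and a median of 0.15. MMP14, a membrane-bound collagenase, read 258 and 489.98, CTSK, a lysosomal collagenase, 5470.4 and 7882, and the inhibitors TIMP2 and SERPINE2 4750.2 and 2831, and 7894 and 4091.

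Members past 2-fold on the border zone side also included genes that stand in none of these lists. FNDC1, a fibronectin domain protein, read 4284 and 1212.5 against 1769 and 1489.7 in controls. LOXL4, another lysyl oxidase, read 960.04 and 269.7 against 309.8 and 294. P3H4, which takes part in collagen hydroxylation, read 305 and 30.6 against 156 and 218, so that here the infarct zone with myoblasts was the one apart. CSRP2, a LIM protein of smooth muscle, read 1749 and 546 against 1887 and 1742, again with a low infarct zone. SPOCK3, a proteoglycan of the testican family, read 237 and 28.9 against 75.2 and 79.1.

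**Figure D3:**
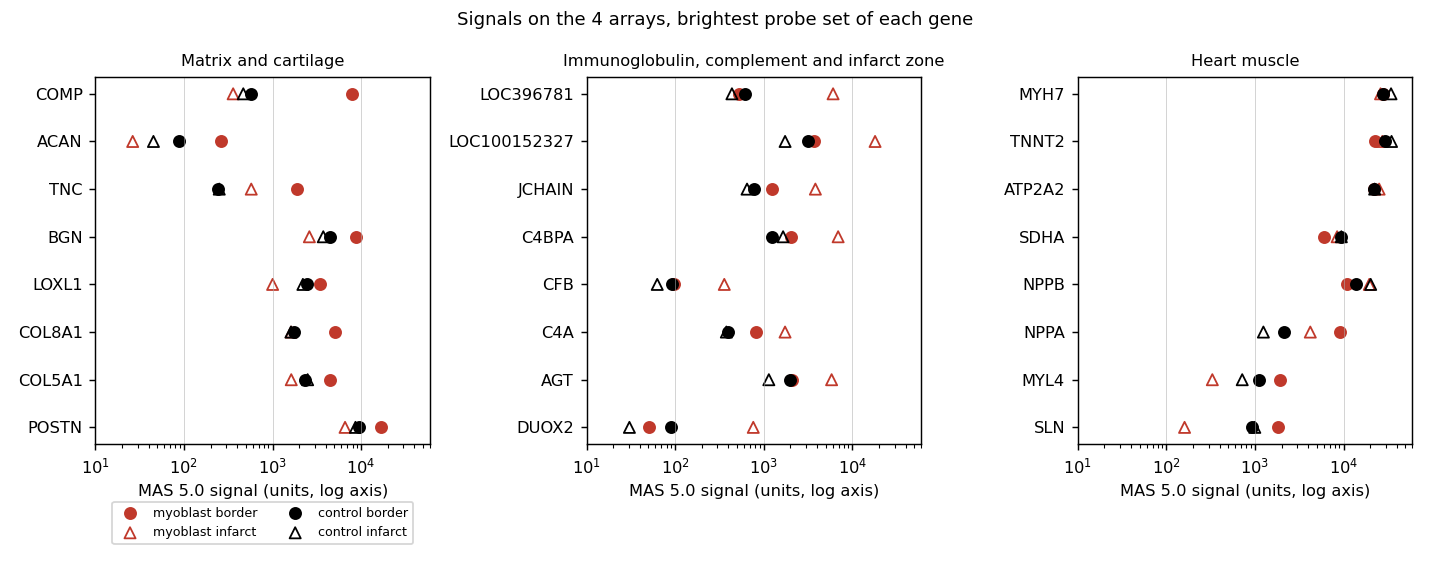
MAS 5.0 signals (horizontal log axis, units) of 24 genes on the 4 arrays by their brightest probe set, with circles for border zone, triangles for infarct zone, red for myoblast hearts and black for controls. COMP at 7838 in the myoblast border zone, LOC396781 at 6064 in the myoblast infarct zone and SLN at 161 in the myoblast infarct zone each lie far from their other 3 points.

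Heart muscle RNA was abundant in both zones. MYH7, the main ventricular myosin heavy chain, read 27731 (border) and 26177 (infarct) after myoblasts, against 28123 and 34384 in controls. TNNT2 (cardiac troponin T) read 22651 and 27422, and ATP2A2, the calcium pump of the sarcoplasmic reticulum, 22222 and 25234. Of 17 sarcomere genes above the minimum, 12 were above 0 and 5 below, with MYH7 and MYL2 (29655 and 27673) among the latter. Summed over the 18 measured, the signal was 261907 (border) and 281991 (infarct), against 328197 and 370341 in controls. By this sum, with every array scaled to the same mean, the infarct zone array was not poorer in sarcomere transcripts than the border zone array. Of 114 genes of the sarcomere, calcium handling, cardiac stress, oxidative phosphorylation, fatty acid, glycolysis and creatine lists, 101 were above 0, with a median of 0.24 against 0.14 in controls, 0 were at least 2-fold higher and 3 (2.63%) were at least 2-fold lower, beside 0.823% and 1.65% of all genes. The share lower is near that of all genes, and nothing is read from it.

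All 33 genes of oxidative phosphorylation lay above 0, from 0.02 for NDUFA10 to 0.51 for SDHA, with a median of 0.25. In control hearts 28 of the 33 were above 0, with a median of 0.13. SDHA, the catalytic subunit of succinate dehydrogenase, read 5954 and 8471 against 9327 and 9450.0 in controls. Of 22 genes of fatty acid uptake and oxidation, 21 were above 0, with a median of 0.23 against 0.06 in controls, led by LPL, the lipoprotein lipase of the capillary wall, at 2475 and 4111. CKMT2, the mitochondrial creatine kinase of muscle, read 11500.3 and 17131. None of these genes passed 2-fold. Summed over the 33 oxidative phosphorylation genes, the signal was 273929 (border) and 319928 (infarct), both below the control border zone at 353993. PPARGC1A, a coactivator that drives mitochondrial genes, read 829 and 1025 against 2403 and 2029.7.

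The 3 muscle genes that were at least 2-fold lower in the infarct zone were SLN, MYL4 and NPPA. SLN (sarcolipin, a small inhibitor of the calcium pump) read 1833 (border) and 161 (infarct), against 931 and 997 in controls, a log2 difference of -3.51. MYL4, the atrial and embryonic myosin light chain, read 1901 and 331 against 1120.1 and 719, so that the infarct zone was again the lowest of the 4 arrays. NPPA (atrial natriuretic peptide) read 9119 and 4218 against 2153 and 1246, with both myoblast arrays above both controls. NPPB, the B-type natriuretic peptide of stressed ventricle, went the other way with 10922 and 19546 against 13836 and 20268. Which part of the heart wall each sample held is not given in the sources used here. Of the markers of skeletal muscle, the type of cell injected, 3 of 16 measured genes reached the minimum: SLN, TNNT1 and MYL1. TNNT1 read 11481 and 13056 against 5520 and 8196 in controls, with both myoblast arrays above both controls. MYL1 read 3115 and 2239.6 against 4445 and 3914, with both myoblast arrays below both controls. The myogenic factors PAX3, MYF5, MYF6 and MYOD1 read at most 43.6 on either array. The probes are porcine, and how far they bind human transcripts was not tested.

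Immunoglobulin transcripts were among the members higher in the infarct zone. LOC396781, listed by RefSeq with the synonym IGHG (immunoglobulin G heavy chain), read 519.5 (border) and 6064 (infarct) after myoblasts, against 619 and 437 in controls, 11.7 times as high in the infarct zone as in the border zone. JCHAIN, the chain that joins secreted IgA and IgM, read 1245 and 3828 against 775 and 648. In both genes the infarct zone with myoblasts was the only high array. XBP1, a transcription factor that plasma cells share with other secretory cells, did not move with them (3453 and 2833 against 3013 and 3101). Summed over the 6 measured genes of the B and plasma cell list, the signal was 5255 (border) and 12859 (infarct), against 4454 and 4207 in controls. Members of immunoglobulin families can share sequence, so how the signal divides among immunoglobulin genes cannot be read from a probe set. LOC100152327, for which the annotation gives no gene name, read 3675 and 18061 against 3153 and 1742, again with a single high array.

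Complement genes were on the same side in part. Of the 22 complement genes measured, 15 reached the minimum, 3 of them at least 2-fold higher in the infarct zone and 0 lower, with a median of 0.13 against -0.03 in controls. CFB, factor B of the alternative pathway, read 98.3 and 359 against 91.6 and 62.8. C4A, cleaved by the classical and lectin pathways, read 811 and 1740.4 against 396 and 379, and C1QA, a chain of the C1q recognition protein, 317 and 642 against 334 and 314. Outside the list, C4BPA, a plasma inhibitor that binds C4b, read 2053 and 6916 against 1246 and 1654, and CR1, a receptor for C3b and C4b, 162 and 635 against 78.7 and 169. The abundant components C3 (9571 and 10466, named after its values were seen) and C1R (9477 and 9014) and the inhibitors SERPING1 (6261 and 5089) and CD46 (2853 and 2242) were close between the zones, C3 with both myoblast arrays above both controls (3647 and 3637). The complement, B and plasma cell and macrophage lists held 32 genes above the minimum, of which 5 (15.625%) were at least 2-fold higher and 0 lower, beside 0.823% and 1.65% of all genes. With both arrays at the minimum, 4 of 31 genes (12.9%) were higher and 0 lower, beside 0.560% and 1.31% of all genes. CFB dropped out, since it reached the minimum through the infarct zone array alone. These lists, too, were chosen with earlier results known, so the counts are a description. Of the immune lists left out, the neutrophil and the cytokine and mediator lists each held 1 lower gene (NCF1 and ALOX5AP). The chemokine list held 1 higher gene (CCL21).

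Macrophage and monocyte markers were slightly higher in the infarct zone, with 13 of 17 genes above 0 and a median of 0.25 against 0.15 in controls. C1QC, another C1q chain, read 1496 and 2743, and CD163, the haemoglobin scavenger receptor, 1053 and 1810.0, against 1330.2 and 1299.6 in controls. AIF1 (IBA1) and FCER1G were close between the zones, at 1037 and 902 and at 553 and 529.7. The summed signal of the 24 measured genes of this list was 41769.9 (border) and 52357 (infarct), against 32936 and 36041 in controls. CD209, a lectin of dendritic cells and macrophages that is in none of the lists, read 74.6 and 507 against 33.0 and 47.5. It was named for its large difference and reached the minimum through the infarct zone array alone. Markers of other leucocytes were too dim to read: 1 of 9 neutrophil genes and 2 of 17 T and NK cell genes reached the minimum. The neutrophil gene was NCF1, a subunit of the phagocyte NADPH oxidase, at 215 (border) and 45.4 (infarct), against 110.5 and 48.6 in controls. The log2 differences were -2.24 and -1.19. NCF1 reached the minimum through the border zone array with myoblasts alone, and both control signals were under the minimum, so nothing is read from the shared direction. Summed signals of the T and NK cell list were 1218 and 1389, against 1341 and 1368 in controls. A large part of these sums is NCAM1, also present on muscle, at 497 and 304 against 539 and 671 in controls. Over all 17 measured genes, 15 of them under the minimum, the median log2 difference was 0.48. Nothing is read from these values.

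The cytokine and mediator list differed little between the zones as a group, with a median of -0.03 against 0.03 in controls. Of 11 cytokine and mediator genes above the minimum, 0 were at least 2-fold higher and 1 was lower, a count too small to set against the 0.823% and 1.65% of all genes. It was ALOX5AP, needed for leukotriene synthesis, at 783 and 292 against 209.7 and 256 in controls. IL6 read 113 and 189 against 38.6 and 41.7, and IL10, whose mean lay just under the minimum, 89.1 and 160.3 against 76.5 and 47.2. IL1B read 107 and 111 against 161 and 121 in controls, and TNF 9.21 and 13.95 against 48.6 and 40.5. On the myoblast arrays both genes were under the minimum. TLR4, the receptor for lipopolysaccharide and tissue damage signals, read 451 and 483 against 302 and 244. IL1B has 2 probe sets and TLR4 has 5, of which only the brightest is given here. MAPK8 (JNK1) was too dim to read at 16.3 and 38.1. Among 12 chemokines above the minimum, 7 were above 0 and 5 below, with a median of 0.32 against -0.17 in controls. CCL21, which guides lymphocytes and dendritic cells, was past 2-fold with 115 and 233 against 20.5 and 133. It reached the minimum through the infarct zone array alone. CXCL2, a neutrophil attractant, read 3369 and 4747, and CCL2, a monocyte attractant, 3837 and 3041. Interferon response genes were balanced, with 9 of 18 above 0 and a median near 0 against -0.32 in controls. PTX3, a pattern recognition protein of acute inflammation, was higher in the infarct zone with 677 and 1689 against 308 and 364.

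**Figure D4:**
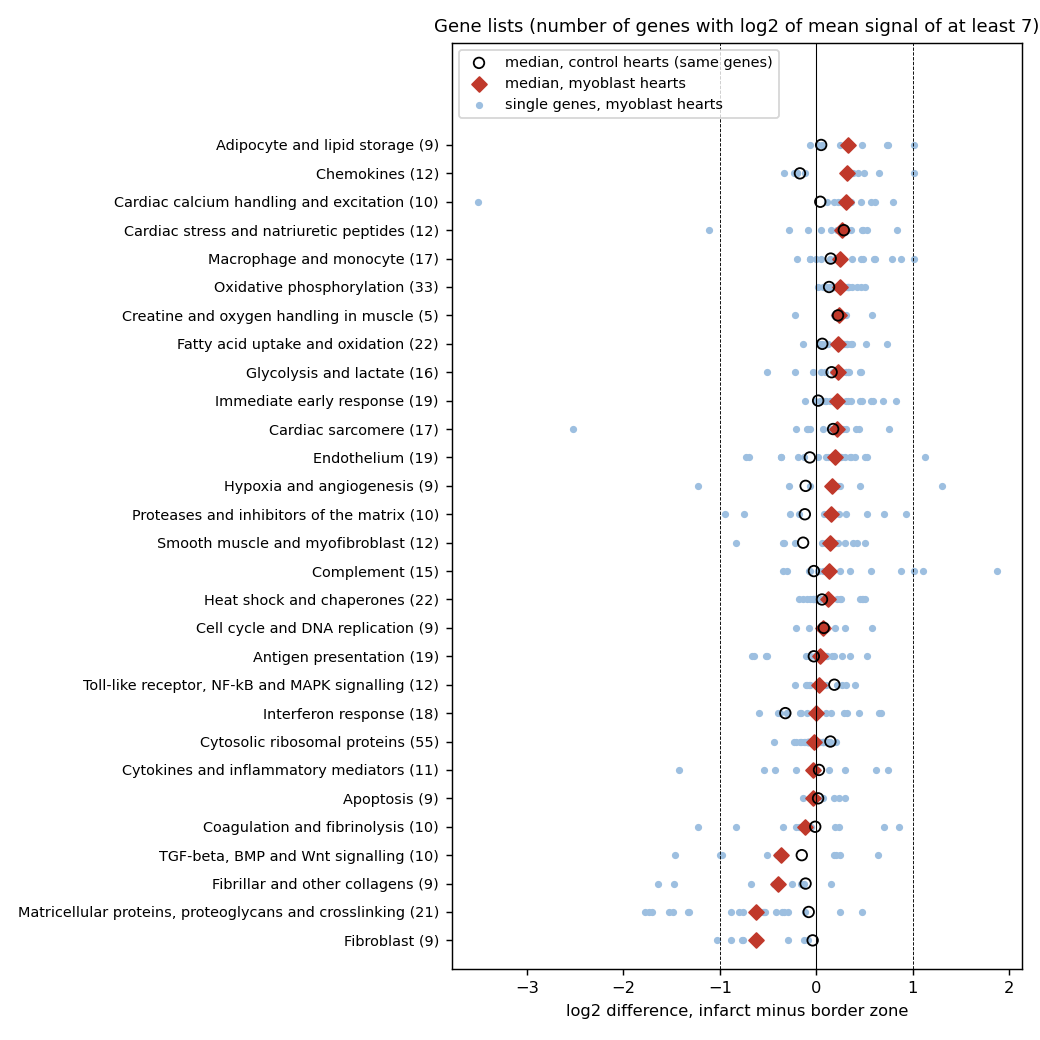
Log2 difference of infarct minus border zone (horizontal axis) for each gene list with at least 5 genes above the minimum, with small points for genes of myoblast hearts, red diamonds for list medians of myoblast hearts and open circles for the same genes' medians in control hearts. The fibroblast and matricellular lists lie furthest below 0 (both medians -0.63), while muscle and energy lists lie slightly above 0.

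Several single genes outside these groups were at least 2-fold higher in the infarct zone with myoblasts. DUOX2, an oxidase that makes hydrogen peroxide at epithelial surfaces, read 50.7 (border) and 762 (infarct), against 90.8 and 30.5 in controls. UPK1B, a uroplakin found in urothelium and mesothelium, read 61.3 and 347.6 against 38.3 and 37.7. Of the 7 epicardial and mesothelial markers measured, the others above the minimum were PDPN (podoplanin) at 2493 and 2369 and KRT8 (keratin 8) at 496 and 513. Of the 4 under the minimum, KRT19 (keratin 19) was also more than 2-fold higher, at 3.25 and 80.9, but signals this dim are often 2-fold apart. AGT (angiotensinogen, the precursor of angiotensin) read 2074 and 5836 against 1980.1 and 1142. DDC, the aromatic amino acid decarboxylase, read 1006 and 2854 against 111 and 218, with both myoblast arrays above both controls. RARRES1, a retinoic acid responsive gene, was higher by both of its members, at 311 and 851 and at 200.4 and 428. IGFBP2, which binds insulin-like growth factors, read 61.6 and 198 against 17.4 and 70.7. The infarct zone was higher in control hearts too, where both signals were under the minimum. DUOX2, UPK1B and IGFBP2 reached the minimum through the infarct zone array alone.

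Genes of vessels and hypoxia were mixed. Of 19 endothelial genes, 13 were above 0 with a median of 0.20 against -0.07 in controls. RBP7, a retinol-binding protein of endothelium and fat, was past 2-fold with 174 and 379 against 10.3 and 6.10, VCAM1, an adhesion molecule, read 5747 and 8269, and CD34 and EDN1 (endothelin 1) were lower with 792 and 476 and with 210.1 and 129.4. ADM (adrenomedullin, a hypoxia-induced vasodilator) read 393 and 968 against 301 and 377, and ANGPT1, an angiopoietin that stabilises vessels, 258 and 110.3 against 116 and 107.4. Smooth muscle genes showed no common direction, with 8 of 12 above 0. ACTA2, smooth muscle actin, read 13169 and 13669.5 in the zones with myoblasts, against 12531 and 7910.4 in controls. TFPI2, an inhibitor of serine proteases, was lower in the infarct zone with 7655 and 3260.5 against 3213 and 3281. Immediate early genes were above 0 in 17 of 19, with a median of 0.22 against 0.02 in controls. Of 5 erythrocyte genes measured, 3 were under the minimum, and the haemoglobin genes HBB and HBM read higher in the border zone. HBB read 1407 and 1047 against 815 and 668 in controls, an order that both treatments shared. HBM read 263 and 112.5 against 121.7 and 122.6, and reached the minimum through the border zone array alone. Cytosolic ribosomal protein genes were near 0, with a median of -0.03 against 0.15 in controls.

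Among genes of nerve and hormone peptides, PDYN (prodynorphin, an opioid peptide precursor) had the largest difference of any member with a symbol, at 1273 (border) and 47.6 (infarct), against 309 and 71.3 in controls, log2 differences of -4.74 and -2.12. The border zone was therefore the higher one in both treatments. CCK (cholecystokinin) read 2128 and 428 against 5499 and 2900.2, with log2 differences of -2.31 and -0.92. NCAM1, a neural adhesion molecule also present on muscle and NK cells, was lower by its 3 members, at 516 and 163, at 497 and 304 and at 248 and 172, while another dim probe set read 50.5 and 78.9. TYR (tyrosinase, the pigment enzyme) read 275 and 54.2 against 42.1 and 63.0. FOXO1, a transcription factor the study names, read 1478 and 857 against 1292 and 1205. THBS1 (thrombospondin 1) read 10658 and 7328 by its brightest probe set, against 4523 and 3419 in controls, but its 5 probe sets disagreed, with 1 dim one at 39.6 and 137.

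The zone difference in control hearts shares no array with the one described. Over all 12418 members, 45 (0.362%) were at least 2-fold higher in the infarct zone of controls and 84 (0.676%) at least 2-fold lower. Of the 124 higher members, 12 (9.68%) were also at least 2-fold higher in the infarct zone of controls and 6 (4.84%) were at least 2-fold lower there, and the median control difference was 0.06. Both shares were above those over all members. Some of these members were dim in controls, such as EAF2 at 21.1 and 62.9 and IGFBP2 at 17.4 and 70.7. In controls, 17.4% of probe sets with a log2 mean signal from 5 to 7 were 2-fold apart, so nothing is read from these shares. Of the 227 lower members, 3 (1.32%) were also at least 2-fold lower in the infarct zone of controls and 2 (0.881%) were at least 2-fold higher, with a median of -0.11. Against the controls, 48 of the 124 higher members (38.7%) had an infarct zone signal at least 2-fold above both control arrays, 24 (19.4%) had a border zone signal at least 2-fold below both, and 52 had neither, where 1.85% and 1.26% of all members met these marks. Of the 227 lower members, 71 (31.3%) had a border zone signal at least 2-fold above both control arrays, 38 (16.7%) an infarct zone signal at least 2-fold below both, 3 of them with both, and 121 had neither, where 2.14% and 1.04% of all members met these marks. The members were chosen by these same myoblast arrays, so the last shares describe them only. COMP, TNC and COL8A1 are of the first kind among the lower members, and SLN, MYL4 and CSRP2 of the second. Whether the zone difference itself differed between treatments was not tested, since no array is replicated.

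**Figure D5:**
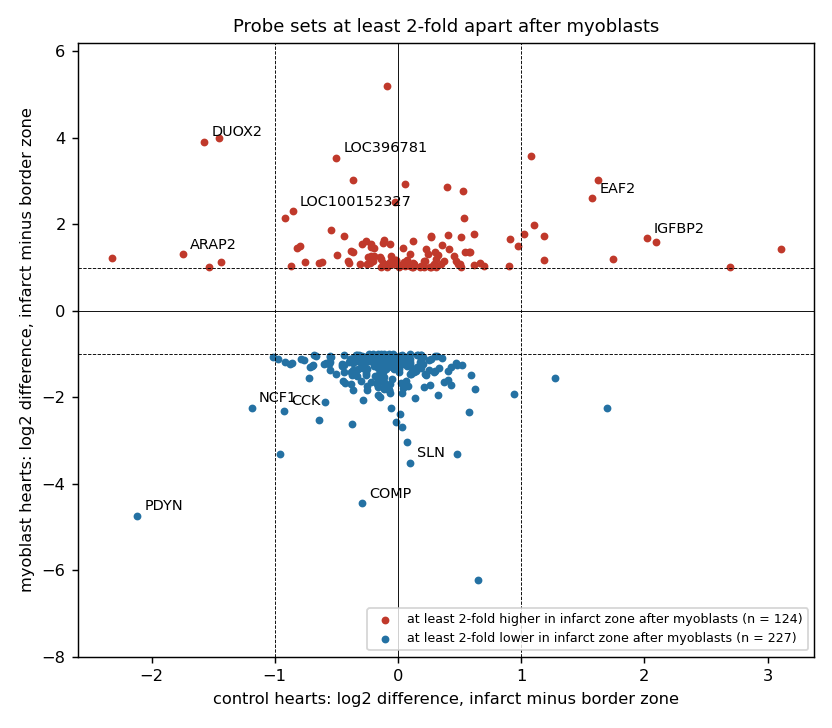
Log2 difference of infarct minus border zone in myoblast hearts (vertical axis) against that in control hearts (horizontal axis) for the 351 members at least 2-fold apart after myoblasts, red for 124 higher and blue for 227 lower in the infarct zone, with 2-fold as dashed lines. Most points lie between the vertical dashed lines; PDYN is lower in the infarct zone in both treatments, and DUOX2 and ARAP2 are higher after myoblasts and lower in controls.

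Not every gene with a member past 2-fold was supported by its other probe sets. Of the 61 higher members with a symbol, 23 had other members for the same gene, and in 4 of these some other member had the opposite direction; of the 107 lower ones, 38 had others and 6 had an opposite one. B2M, the light chain of MHC class I, read 4447 and 1289 by the probe set that passed 2-fold but 22363 and 22966 by its brightest. OAZ1, which controls polyamine synthesis, read 12144 and 3832 by one and 8128 and 8921 by the other. NDUFA1, a subunit of respiratory complex I, read 338 and 95.3 by one and 10626 and 13348 by the brighter. CAST, MARK3, LITAF and HACD3 were past 2-fold in the infarct zone only by dimmer probe sets, with brightest probe sets at 5286 and 5934.5, 1116 and 1254, 5715 and 6429.9, and 1338.0 and 1074. For ROCK1, a kinase that controls contraction of the cytoskeleton, the 3 probe sets shared a direction, at 804 and 1339.9, 156 and 423, and 16.4 and 49.9. No single symbol was given for 63 of the higher and 120 of the lower members. Among them were the largest differences of all, a probe set with no symbol at 75.5 and 2788 against 3.94 and 3.70 in controls, and another at 966 and 12.9 against 13.01 and 20.5.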

How the data were processed

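Total RNA of heart tissue was measured on 4 Affymetrix Porcine Genome Arrays, 1 per zone and treatment, grouped by the titles in the labels. According to the methods, the authors scanned the arrays with a GeneChip Scanner 3000 under Command Console 3.1, normalized them with MAS 5.0 (background subtraction and scaling of every array to the same mean), and used GeneSpring 11.0. The deposited values are log2 signals, used as deposited and printed as linear signals in units. No count lies behind a signal, and the number of arrays limits the precision.

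The zones were compared by the difference of the log2 values, with 2-fold, the threshold of the methods, as the mark. The minimum was a mean of the linear signals, in the pair of arrays compared, with a log2 of 7. The table also holds 124 Affymetrix controls, read only as a check, the poly-A transcripts where all 4 arrays read at least 64 units. Symbols came from the platform annotation: 10069 probe sets carry a single symbol, of which 9989 have a gene ID found in the RefSeq table, with 0 symbols changed. No sequences are shown, since no sequence table was used here.

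There were 37 gene lists with 639 genes measured, among them cardiac sarcomere, calcium handling, stress, oxidative phosphorylation, fatty acid oxidation, glycolysis, creatine, skeletal muscle, collagens, matricellular proteins, cartilage, proteases, TGF-beta signalling, cell type markers, cytokines, chemokines, complement, coagulation, heat shock, cell cycle, apoptosis and ribosomal proteins, each gene by its brightest probe set. Genes were named as the 25 largest differences in each direction among members with a single symbol, the 3 largest in each direction of each list, the genes the study names, and genes needed to check the tissue; others were chosen after their values were seen. The members, lists and rule were chosen with earlier results of these data known. Median differences of the lists not described in the report were 0.12 for heat shock, 0.07 for cell cycle, -0.04 for apoptosis, 0.33 for adipocyte, 0.04 for antigen presentation, 0.03 for Toll-like receptor and MAPK signalling, -0.12 for coagulation and -0.43 for nerve genes. COL1A1 was not analysed here.

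Alternatives were quantile normalization, centring, other minimums, a floor, other thresholds, genes in place of probe sets, and a gene's average over its probe sets. The counting was tested on simulated data. Python 3.11.15, numpy 2.4.6, pandas 2.3.3 and matplotlib 3.10.9 were used.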

Additional observations from a re-analysis of the deposited data

Results flagged for a closer look

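DUOX2 and ARAP2 stood 2-fold apart between the zones in opposite directions in the 2 treatments. The log2 difference of infarct minus border zone was 3.91 for DUOX2 after myoblasts and -1.57 in controls, where both signals were under the minimum (90.8 and 30.5). For ARAP2, a regulator of small GTPases, it was 1.31 (signals of 141 and 349) after myoblasts and -1.75 (200.2 and 59.7) in controls. With 1 array per zone and treatment the difference between treatments was not tested.

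The bacterial poly-A control transcripts, which come from no tissue, were 2.19 times as high in the border zone as in the infarct zone after myoblasts by the median of their 32 probe sets, with all of them higher in the border zone. In controls they were higher in the infarct zone, with a median infarct over border ratio of 1.44. Their part in the zone differences was not tested.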

How the results depend on the processing

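The counts of 2-fold members, 124 higher and 227 lower in the infarct zone, stayed within 1.5 times under quantile normalization (125 and 220), centring on array medians (108 and 240), a geometric mean for the minimum (107 and 210) and a floor at the minimum (91 and 190). Under quantile normalization, 118 of the higher and 217 of the lower members kept their place, and under centring 108 and 227. With both arrays at the minimum or more there were 71 higher and 171 lower members. With a minimum of 6 on the log2 scale there were 285 and 359, with 9 there were 28 and 111, and with no minimum 2348 and 1945. At 4-fold there were 15 and 20, at 1.5-fold 663 and 857, and by distinct genes 41 and 82. Of the 37 list medians, none moved much under quantile normalization and centring, and those not near 0 kept their direction. Under the floor 4 medians moved more, with both arrays at the minimum 3 did, and with no minimum 10 did. With no minimum the cartilage, tendon and bone list went from -3.32 to -0.09. For medians near 0 the direction was not checked. With each gene averaged over its probe sets, 8 medians moved. Besides these, the hypoxia and angiogenesis list turned from 0.16 to -0.067, and the cause was not tested. Of 234 values of named probe sets, 65 were at least 2-fold. None of these 65 turned direction under quantile normalization, centring, the floor or the mean over probe sets. Under these settings 2, 3, 13 and 15 of them fell below 2-fold. For the smaller differences the direction was not checked. Signals near the minimum limit what can be read, and no setting replaces a replicate. No paired analysis was possible because each zone and treatment has 1 array.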
